A study of Mus musculus with 6 samples.

Results

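The genes described here encode the enzymes that build the sugar chains of mucins and related glycoproteins and glycolipids. They were chosen by name, with a rule set when earlier results of these data were known. It took probe sets whose single gene symbol begins with Galnt, Gcnt, B3gnt, B3galt, B4galt, C1galt, St3gal, St6gal or Fut, then letters and a digit. This gave 54 genes of the 12393 on the array, each measured by its probe set with the highest mean over the 6 arrays. A4gnt, the enzyme that caps gland mucin with GlcNAc, was also looked for and is not analysed here, nor are Galnt12 and B3gnt6. The name rule takes in enzymes that act mainly on N-glycans, glycolipids or proteoglycans, and their roles are given below.

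RNA came from the stomach antrum, the distal mucus- and gastrin-secreting region of the stomach. It was taken from Satin mice, which carry a mutation in the forkhead transcription factor gene Foxq1, and from 2 strains titled as controls, Beige mice, which carry a mutation in Lyst, and C57/BL6 mice, with 2 Affymetrix arrays for each strain. The sources used here do not give the genetic background of the Satin and Beige mice, whether Satin mice carry the Lyst mutation too, or the age and sex of the animals, and they do not say that each array holds 1 animal. What the p-values measure is therefore array-to-array spread, part of which may be technical.

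Mucins leave the cell as proteins covered with O-glycans. A GalNAc transferase starts each chain on a serine or threonine, core enzymes lengthen or branch it, and sialic acid or fucose caps its ends. In the stomach, surface pit cells secrete Muc5ac and gland mucous cells secrete Muc6, and their glycans differ in the caps they carry.

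Levels are given as log2(signal + 32) after quantile normalization between arrays, a scale on which differences of dim genes are understated. Levels of different genes come from different probes and are not set against each other. Median deposited signals were 74.15 and 58.6 in Satin, 49.5 and 49.1 in Beige, and 47.6 and 38.2 in C57/BL6, so the Satin arrays were brighter before normalization. Of 4 pit cell genes listed, Gkn1, Gkn2 and Tff1 lay between 13.00 and 13.29 over all arrays, and Muc5ac is given below. Those levels are high on the scale, where these genes share several identical normalized values. Differences can be hidden there, so pit cell content cannot be read from them. The gastrin gene Gast lay between 10.18 and 12.21. Intestinal genes were mixed. Cdx1 and Cdx2, intestinal transcription factors, were too dim to be tested, while Vil1, a brush border gene, lay between 8.27 and 9.35. Fabp2, a fatty acid binding protein of enterocytes, stood at 6.28 and 6.66 in Satin, against 11.22 and 11.11 in Beige and 11.33 and 10.70 in C57/BL6. Of 7 pancreatic enzyme genes listed, 3 were on the array. Their summed signal was higher on replicate 2 than on replicate 1 in each strain, at 16028 and 1093 in Satin, 5316 and 2177 in Beige, and 24403 and 2505 in C57/BL6. Of the cell types listed, 3 of 5 endocrine genes and 2 of 5 tested intestinal genes (Fabp2 and Rbp2) were called lower in Satin than in both controls. Both plasma cell genes, 1 of 4 tested gland mucous cell genes (Bpifb1, difference 4.37) and 1 of 2 chief cell genes (Pga5, 3.12) were called higher. The gland mucous cell genes Tff2 (0.06), Pgc (0.17) and Aqp5 (0.10) and the chief cell gene Cblif (0.17) were not called. Nor were the other tested intestinal genes, Vil1 (-0.31), Fabp1 (0.76) and Apoa4 (0.84), of which Fabp1 and Apoa4 lay on the other side of 0 from Fabp2 and Rbp2. The part of such cells in the values below was not tested. In whole tissue, fewer cells of a type and less RNA per cell cannot be told apart.

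Muc5ac, the main mucin of the surface cells, stood at 8.56 and 8.58 in Satin, against 12.95 and 12.94 in Beige and 13.11 and 12.65 in C57/BL6. Its level fell by 4.35 (SE 0.15, limma adjusted p = 1.31e-06). Of 11 mucin genes listed, 8 could be analysed, Muc6 not among them, and of the 6 tested only Muc5ac was called. Of the other mucins tested, Muc1, a membrane mucin, stood at 10.53 and 10.20 in Satin, 10.44 and 9.99 in Beige, and 10.19 and 10.62 in C57/BL6, and its difference of 0.06 (SE 0.19) did not pass (adjusted p = 0.941). Muc5b was too dim to be tested. It stood at 6.29 and 6.08 in Satin, 5.29 and 5.26 in Beige, and 5.35 and 5.28 in C57/BL6, with both Satin arrays above all control arrays. The comparisons below address whether the enzymes that decorate mucins differed in the same tissue.

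The glycosylation enzyme genes showed little difference beside that of Muc5ac. Of the 54 genes, 36 were bright enough to be tested, and 1 of them was called lower in Satin than in both controls (the mean of Beige and C57/BL6), and 0 were called higher (0.436% of all genes). The share called was 2.78% of the genes tested, against 1.44% of all 9395 genes. With the probe set chosen for each gene, differences beyond 1 on the log2 scale were seen in 0 of the 36 genes and in 180 of the 9395. Differences of that size were rare among all genes too, so the 0 does not set these genes apart. A second probe set of C1galt1, given below, differed by -1.58. It was not chosen because its mean over the 6 arrays was lower, though its mean over the control arrays was higher. The values ran from -0.72 to 0.66 with a median of 0.08, against a median of 0.00 over all genes tested, and 23 of the 36 lay above 0 (63.9%, against 49.8% of all genes). Without the filter on dim genes, 26 of the 54 lay above 0, with a median of -0.02, against -0.01 over all genes. At an unadjusted p under 0.05 there were 4 (11.1%, against 12.6% of all genes). Both Satin arrays lay above all 4 control arrays for 6 genes (16.7%, against 10.9% of all genes) and below them for 1 gene (2.78%, against 12.7% of all genes).

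**Figure D1:**
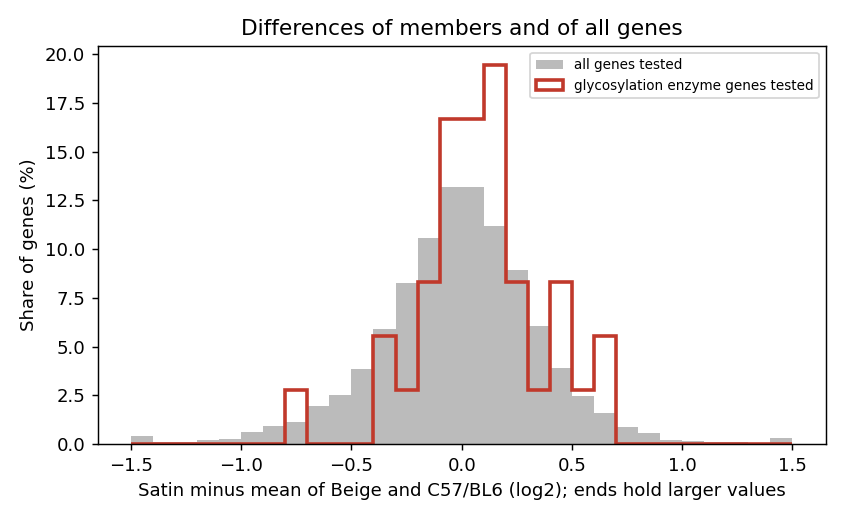
Histogram of the difference between Satin and the mean of Beige and C57/BL6 on the log2 scale (x axis) as a share of genes in percent (y axis), for all 9395 genes tested (grey) and the 36 glycosylation enzyme genes tested (red line). The red line lies between -0.72 and 0.66, within the range of the grey bars.

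The other 18 genes fell below the filter on dim genes, the lowest 30% of probe sets by mean. Their deposited signals ran from 0.4 to 68.1 over the 6 arrays, and they were left out of the fit. Without the filter, the 1 gene called among the 54 against both controls was Fut8, which is not one of these. They were 9 chain extension enzymes, 4 fucosyltransferases, 3 sialyltransferases, Gcnt1 and Galntl5. Among them are Gcnt1, a core 2 branching enzyme of many tissues, with deposited signals of 5.4 and 4.4 in Satin, 35.6 and 19.9 in Beige, and 3.6 and 8.1 in C57/BL6, and St6galnac1, which makes the sialyl-Tn antigen. Fut9, a Lewis fucosyltransferase, also lay there, at 11.5 and 7.2 in Satin, 18.4 and 13.7 in Beige, and 22.1 and 4.7 in C57/BL6. For Gcnt1 the Satin arrays lay below the Beige arrays and overlapped C57/BL6.

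Results below turn on 3 genes, Fut8, C1galt1 and St3gal6, and the windows around their annotated starts are shown so that their sequence can be set beside the measurements. Each window runs from 250 bases before to 50 bases after the start, 5′ to 3′ on the gene's strand, from RefSeq on build GRCm38.p6. Capitals mark the GC box GGGCGG or its reverse complement CCGCCC. The forkhead core TGTTTA and its reverse complement TAAACA were also searched on both strands.
C1galt1, chr6:7844974-7845273, plus strand: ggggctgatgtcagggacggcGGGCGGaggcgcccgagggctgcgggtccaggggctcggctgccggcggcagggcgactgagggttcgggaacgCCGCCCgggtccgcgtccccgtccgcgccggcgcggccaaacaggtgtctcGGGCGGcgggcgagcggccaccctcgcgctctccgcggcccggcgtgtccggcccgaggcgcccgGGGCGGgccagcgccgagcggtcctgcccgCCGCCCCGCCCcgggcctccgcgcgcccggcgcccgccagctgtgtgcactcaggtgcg
Fut8, chr12:77237854-77238153, plus strand: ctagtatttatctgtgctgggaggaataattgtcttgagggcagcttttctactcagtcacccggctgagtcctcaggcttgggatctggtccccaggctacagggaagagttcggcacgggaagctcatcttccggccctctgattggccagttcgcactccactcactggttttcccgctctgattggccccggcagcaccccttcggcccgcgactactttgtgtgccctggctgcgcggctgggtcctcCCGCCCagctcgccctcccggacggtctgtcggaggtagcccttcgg
Fut8, chr12:77238489-77238788, plus strand: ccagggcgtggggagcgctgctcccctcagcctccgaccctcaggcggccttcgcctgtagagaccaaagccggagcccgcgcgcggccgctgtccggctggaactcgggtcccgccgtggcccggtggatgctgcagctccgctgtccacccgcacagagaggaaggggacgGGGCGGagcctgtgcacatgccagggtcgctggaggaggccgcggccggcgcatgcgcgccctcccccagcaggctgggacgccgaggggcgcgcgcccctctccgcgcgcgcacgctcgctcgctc
St3gal6, chr16:58523377-58523676, minus strand: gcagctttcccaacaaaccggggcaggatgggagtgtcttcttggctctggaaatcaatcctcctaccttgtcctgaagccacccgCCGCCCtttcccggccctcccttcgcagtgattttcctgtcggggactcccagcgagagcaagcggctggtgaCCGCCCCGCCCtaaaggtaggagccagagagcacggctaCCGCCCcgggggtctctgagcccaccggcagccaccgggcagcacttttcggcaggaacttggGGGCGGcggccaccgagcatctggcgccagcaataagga

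The C1galt1 window held 6 GC box matches and 82.7% G and C, and the St3gal6 window held 5 matches, with 1 base shared between neighbouring matches in each of these windows. Each Fut8 window shown held 1 match. Further annotated starts of Fut8 and St3gal6 gave windows without either motif, which are not shown. None of these windows held the forkhead core, which says only that these letters are not in them. Over all 32851 promoter windows of that length, 35.7% held a GC box and 13.4% the forkhead core. Of 57 windows of the 39 glycosylation enzyme genes that the table lists, 29 (50.9%) held a GC box and 3 (5.26%) the forkhead core, at Galntl5, Gcnt2 and St6galnac6. The median share of G and C was 60.3% in these windows and 52.7% in all windows.

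**Figure D2:**
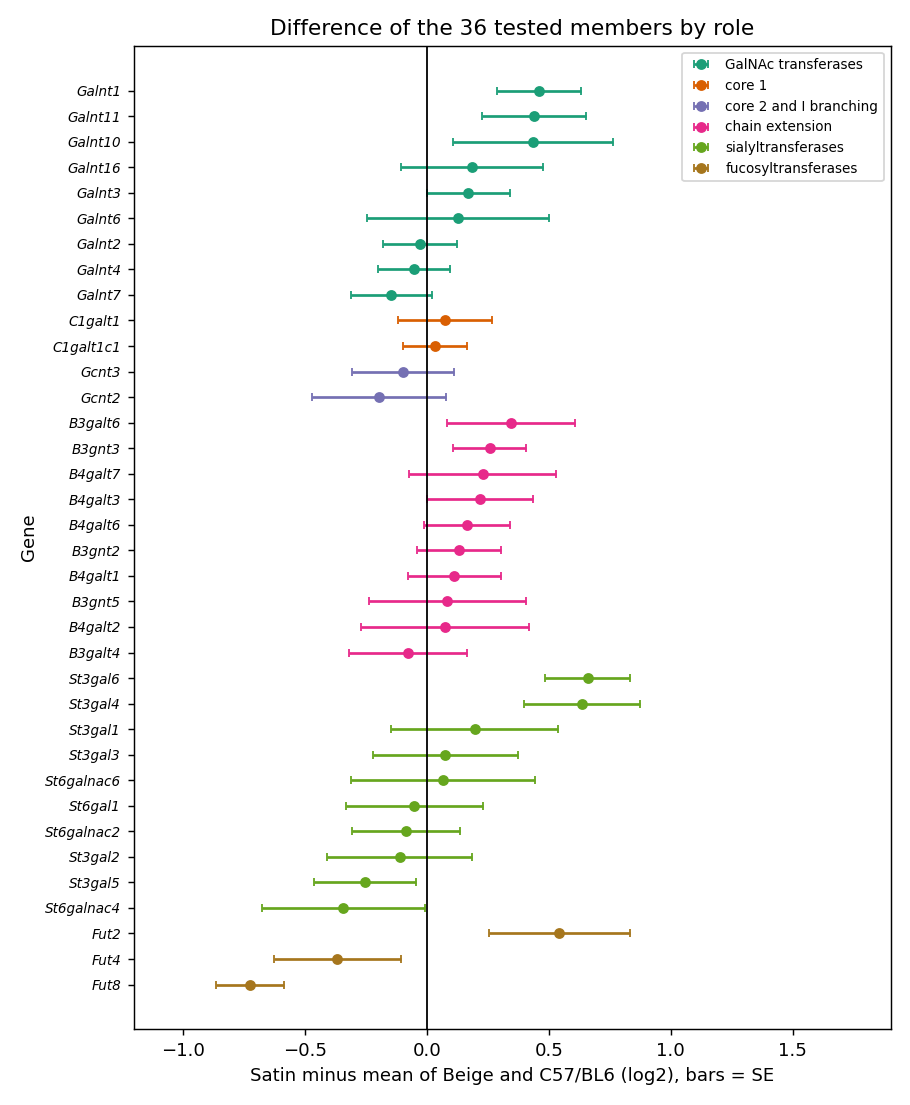
Difference between Satin and the mean of Beige and C57/BL6 on the log2 scale (x axis) for each of the 36 tested genes (y axis), coloured by role, with bars of 1 SE from the limma fit of 6 arrays. Fut8, at -0.72, is the gene called, and St3gal6 and St3gal4, at 0.66 and 0.64, have the highest values.

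The GalNAc transferases start the O-glycans. Of 10 genes 9 were tested and 0 were called (1.44% of all genes were), with differences from -0.14 to 0.46. At an unadjusted p under 0.05 there was 1 (11.1%, against 12.6% of all genes). Galnt1, a widely expressed family member, had the smallest p of the 9. It stood at 8.60 and 8.71 in Satin, against 8.03 and 7.97 in Beige and 8.61 and 8.16 in C57/BL6. The Satin arrays lay above the Beige arrays and overlapped C57/BL6, and the difference of 0.46 (SE 0.17) from both controls was not called (adjusted p = 0.288). A dimmer probe set of Galnt1 gave -0.14. Galnt3, which acts in epithelia, stood at 8.34 and 8.54 in Satin, 8.34 and 8.08 in Beige, and 8.47 and 8.18 in C57/BL6, a difference of 0.17 (SE 0.17, adjusted p = 0.758).

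Galnt2, another widely expressed initiating enzyme, stood at 9.17 and 9.06 in Satin, 9.22 and 8.99 in Beige, and 9.06 and 9.30 in C57/BL6. Galnt4 and Galnt7 act on peptides that already carry GalNAc. Galnt4 stood at 9.82 and 10.10 in Satin, 9.79 and 9.99 in Beige, and 10.03 and 10.23 in C57/BL6. Galnt7 stood at 9.54 and 9.80 in Satin, 9.49 and 9.78 in Beige, and 10.18 and 9.81 in C57/BL6. The arrays of the 3 strains overlapped in all of these, and the differences of -0.03 (SE 0.15), -0.05 (SE 0.15) and -0.14 (SE 0.17) had adjusted p-values of 0.965, 0.931 and 0.799. For Galnt2, 2 further probe sets gave -0.45 (SE 0.20, adjusted p = 0.431) and -0.42 (SE 0.21, adjusted p = 0.511) in the fit of single probe sets, with both Satin arrays below all control arrays in each. All 3 of these signs turn with the scaling, as given in the closing part.

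Galnt6 varied most between arrays of 1 strain in this class, at 5.94 and 7.28 in Satin, 6.40 and 6.51 in Beige, and 6.16 and 6.85 in C57/BL6. It was higher on replicate 2 in each strain, as were Galnt4 and Galnt10, and the pancreatic genes above move the same way. So did the summed signal of 4 squamous forestomach genes, which on replicates 1 and 2 was 175 and 212 in Satin, 33.5 and 435 in Beige, and 29.4 and 243 in C57/BL6. Of the 36 tested genes, 6 were higher on replicate 2 in all 3 strains (16.7%, against 11.9% of all genes) and 1 was lower (2.78%, against 13.9%). The part of pancreatic or forestomach RNA in these values was not tested.

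Core 1 is the galactose that C1galt1 adds to GalNAc, and C1galt1c1, also called Cosmc, is the chaperone that C1galt1 needs. C1galt1c1 stood at 9.93 and 9.95 in Satin, 10.12 and 10.03 in Beige, and 9.82 and 9.66 in C57/BL6, a difference of 0.03 (SE 0.13, adjusted p = 0.954). The brighter C1galt1 probe set, which the rule chose, stood at 9.01 and 8.90 in Satin, 8.67 and 9.06 in Beige, and 9.17 and 8.61 in C57/BL6. Its difference was 0.07 (SE 0.19, adjusted p = 0.922), with overlapping strains.

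A C1galt1 probe set with a lower mean over the 6 arrays (8.60 against 8.90), called the dimmer one here, gave another picture. That mean was lower through the Satin arrays, at 7.54 against 8.95. Over the control arrays this probe set had the higher mean, 9.12 against 8.88. It stood at 7.38 and 7.70 in Satin, against 8.99 and 9.57 in Beige and 9.02 and 8.93 in C57/BL6, so both Satin arrays lay below all control arrays. Before normalization its signals were 188.1 and 218.5 in Satin, 398.1 and 816.1 in Beige, and 375.1 and 366.3 in C57/BL6. On the brighter probe set they were 657.7 and 555.2 in Satin, 313 and 560 in Beige, and 416.3 and 286.2 in C57/BL6. In a fit of 15838 probe sets, added after the values were seen, the dimmer probe set fell by 1.58 (SE 0.20, 2.99-fold, adjusted p = 0.00673), where 1.02% of all probe sets were called. Against Beige alone it fell by 1.73 (adjusted p = 0.0131, 0.657% of probe sets called), and against C57/BL6 alone it fell by 1.43 (adjusted p = 0.0337, 0.537% called). The call was lost without Satin replicate 1 (adjusted p = 0.0903) and without the intensity trend (0.0617), while the difference stayed between -1.73 and -1.42 over all omissions. Which transcripts each probe set detects was not tested, and a change of the whole gene cannot be read from these 2 probe sets.

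This disagreement was the widest in the family. Of the 54 genes 27 had several probe sets, and 12 had more than 1 above the filter. Between those the differences spanned 1.66 for C1galt1, at most 0.61 for any of the others and 0.39 at the median, and in 6 of the 12 genes they lay on both sides of 0. St3gal6 and Galnt10 had their tested probe sets on 1 side of 0, as did B4galt6, B3gnt2, Galnt2 and Galnt4.

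**Figure D3:**
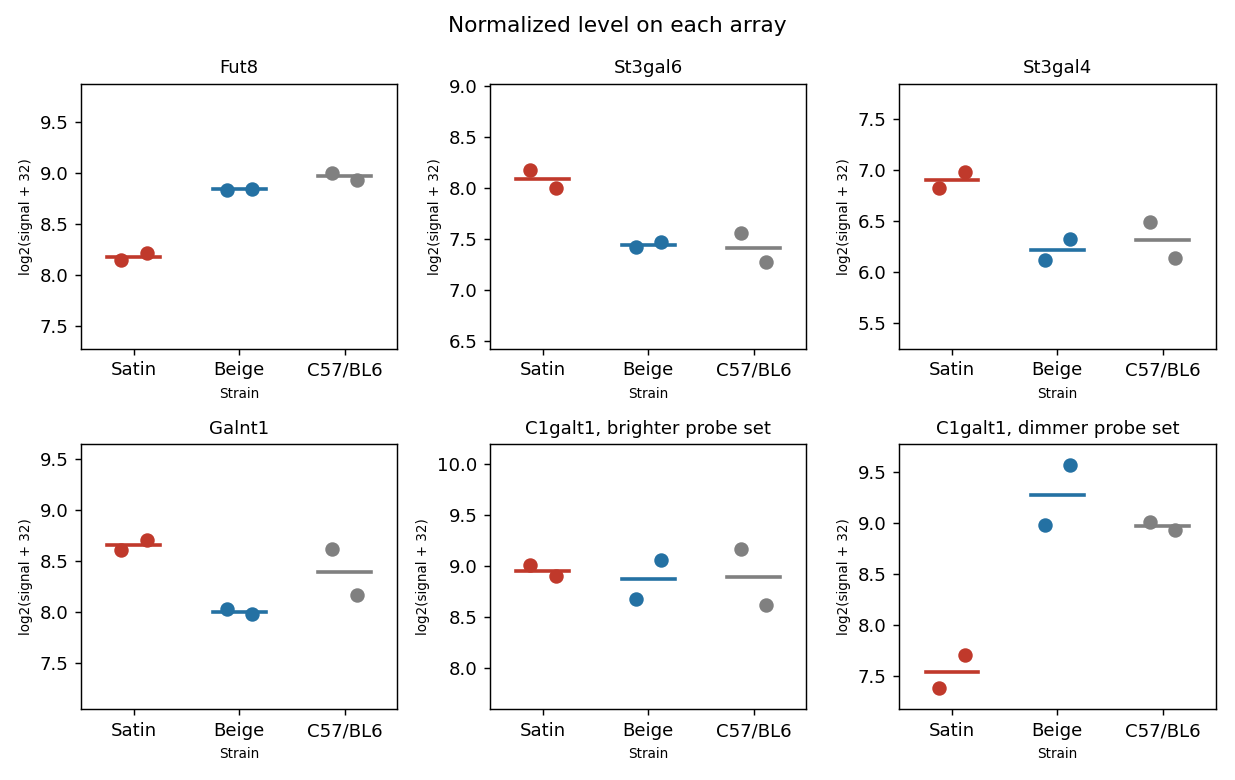
Levels on each array as log2(signal + 32) after quantile normalization (y axis, of equal span in each panel) for Satin, Beige and C57/BL6 (x axis), with points for the 2 arrays of a strain and lines for their mean, for Fut8, St3gal6, St3gal4, Galnt1 and both C1galt1 probe sets. Fut8 and the dimmer C1galt1 probe set lie lower on both Satin arrays than on all control arrays, and the brighter C1galt1 probe set overlaps between strains.

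Gcnt enzymes add the branching GlcNAc. Gcnt3, the mucin-type enzyme that makes cores 2 and 4, stood at 8.43 and 8.63 in Satin, 8.30 and 8.97 in Beige, and 8.77 and 8.46 in C57/BL6. The Satin arrays lay within the range of the controls, and the difference was -0.10 (SE 0.21, adjusted p = 0.903). Gcnt2, which makes I branches, differed by -0.20 (SE 0.28, adjusted p = 0.842), and its second probe set above the filter gave 0.41 (SE 0.31).

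Chain extension enzymes add GlcNAc (B3gnt) and galactose (B3galt, B4galt) in turn. Of 19 genes 10 were tested and 0 were called (1.44% of all genes were), with 0 at an unadjusted p of less than 0.05 (12.6% of all genes). Of the 10, 9 lay above 0 (49.8% of all genes did), and the range was -0.08 to 0.35 with a median of 0.15. The 9 genes of this class that were too dim to be tested all had differences below 0, from -0.47 to -0.03. The lean above 0 is therefore seen only in genes that passed the filter. B3gnt3, which extends core 1, stood at 8.33 and 8.39 in Satin, against 8.21 and 8.16 in Beige and 8.00 and 8.06 in C57/BL6. Both Satin arrays lay above all control arrays, by less than the test could call (difference 0.26, SE 0.15, adjusted p = 0.541). B4galt1, a widely expressed galactosyltransferase, stood at 9.26 and 8.90 in Satin, 9.02 and 8.86 in Beige, and 8.73 and 9.26 in C57/BL6, a difference of 0.11 (SE 0.19, adjusted p = 0.873).

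Among the remaining tested genes of this class, B4galt6, B3galt6, B4galt7 and B3galt4 act largely outside mucins. B4galt6 makes lactosylceramide, and its 4 probe sets, all above the filter, gave differences from 0.05 to 0.53. B3galt6 and B4galt7 build the linker of proteoglycan chains and differed by 0.35 (SE 0.26) and 0.23 (SE 0.30). B3galt4, which acts on gangliosides, gave -0.08 (SE 0.24), the lowest value of the class.

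Sialyltransferases cap chains with sialic acid. Of 13 genes 10 were tested and 0 were called (1.44% of all genes were), with 5 above 0 and 5 below 0. At an unadjusted p under 0.05 there were 2 (20.0%, against 12.6% of all genes). Those 2 were St3gal6 and St3gal4, which add sialic acid to terminal galactose on lactosamine chains. St3gal6 stood at 8.18 and 8.00 in Satin, against 7.42 and 7.48 in Beige and 7.56 and 7.27 in C57/BL6. Both Satin arrays lay above all control arrays. The difference of 0.66 (SE 0.18, 1.58-fold) did not pass over all genes (adjusted p = 0.129), nor did 0.64 against Beige (0.258) or 0.67 against C57/BL6 (0.212). Its second probe set gave 0.37.

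St3gal4 stood at 6.82 and 6.98 in Satin, against 6.11 and 6.32 in Beige and 6.48 and 6.14 in C57/BL6, again without overlap. Its difference was 0.64 (SE 0.24, adjusted p = 0.288). St3gal1, which caps core 1, stood at 6.34 and 5.59 in Satin, 5.66 and 5.80 in Beige, and 6.08 and 5.54 in C57/BL6, with overlapping strains and a difference of 0.20 (SE 0.34, adjusted p = 0.881). St3gal5, which makes the ganglioside GM3, stood at 7.27 and 6.82 in Satin, 7.01 and 7.33 in Beige, and 7.38 and 7.46 in C57/BL6 (difference -0.25, SE 0.21, adjusted p = 0.702). St6gal1, which caps N-glycans, stood at 6.13 and 6.61 in Satin, 5.91 and 6.55 in Beige, and 6.53 and 6.70 in C57/BL6 (difference -0.05, SE 0.28, adjusted p = 0.966).

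Fucosyltransferases hold the called gene. Fut8 adds the core fucose of N-glycans and does not act on mucin O-glycans. It stood at 8.15 and 8.21 in Satin, against 8.83 and 8.84 in Beige and 9.00 and 8.93 in C57/BL6. Both Satin arrays lay below all control arrays, and the arrays of each strain lay close together. Fut8 fell by 0.72 (SE 0.14, 1.65-fold, adjusted p = 0.0406), where 1.00% of all genes were called lower. Against Beige alone the difference was -0.66 (SE 0.16, adjusted p = 0.13) and against C57/BL6 alone -0.79 (SE 0.16, adjusted p = 0.0725).

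The Fut8 call rested on the scaling. Its deposited signals were 345.6 and 328 in Satin, 354.3 and 476 in Beige, and 371 and 366 in C57/BL6, so without normalization both Satin arrays were still the lowest, by a narrower margin. As deposited, the difference was -0.19 (adjusted p = 0.533), while the median of all genes stood at 0.43. Fut8 thus lay 0.62 below the bulk of genes there, against 0.72 with quantile normalization. Leaving out single arrays moved the adjusted p from 0.0276 without C57/BL6 replicate 2 to 0.414 without Satin replicate 1, and the call was lost with each omission other than C57/BL6 replicate 2. The difference itself stayed between -0.75 and -0.69 over these omissions. The call was also lost with median centring (0.334), without the intensity trend (0.179) and with the replicate number as a block (0.0679), the difference staying at -0.72 in the last 2 of these.

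Genes of several cell types were also lower in Satin. All 6 smooth muscle genes listed lay lower, 4 of them called (1.00% of all genes were called lower). Their summed signal was 3032 and 3812 in Satin, against 6797 and 7381 in Beige and 7770 and 5585 in C57/BL6. All 5 endocrine genes listed lay lower too, 3 of them called. The part of muscle, endocrine or other cell content in the Fut8 value was not tested. The genes whose levels over the 6 arrays were most like those of Fut8, by Pearson's r, were Rpgrip1 (0.998), Slc25a35 (0.997) and Slc6a17 (0.995), given as a description.

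Fut2, which makes the H antigen on mucins of the gut, stood at 6.29 and 6.16 in Satin, against 5.95 and 5.81 in Beige and 5.37 and 5.58 in C57/BL6. Both Satin arrays lay above all control arrays, near the filter, and the difference of 0.54 (SE 0.29) did not pass (adjusted p = 0.496). Fut4, an enzyme of Lewis x synthesis, stood at 6.46 and 6.21 in Satin, 6.05 and 6.67 in Beige, and 7.21 and 6.87 in C57/BL6. Its difference was -0.37 (SE 0.26, adjusted p = 0.644) from both controls, -0.03 from Beige and -0.71 from C57/BL6 (adjusted p = 0.987 and 0.377).

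The 2 controls were also taken singly. These comparisons share the Satin arrays, and each shares its controls with the comparison above. Against Beige, 0 of the 36 genes were called with limma, where 84 of all genes (0.894%) were called, 0.224% higher and 0.671% lower. The count at an unadjusted p under 0.05 was 4 (10.5% of all genes), 27 differences lay above 0 (50.3% of all genes did), and the median was 0.14. Against C57/BL6, 0 were called with limma, where 70 of all genes (0.745%) were called, 0.224% higher and 0.522% lower. Here 3 reached an unadjusted p under 0.05 (12.6% of all genes), 24 lay above 0 (49.0% of all genes did), and the median was 0.07.

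In Beige against C57/BL6, limma called 0 of the 36 and 0 of all genes (0%). Of the 36, 1 reached an unadjusted p under 0.05 (5.13% of all genes did), 13 lay above 0 (48.8% of all genes did), and the median was -0.08. That 1 gene was Fut4, with a difference of -0.68 (SE 0.30).

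**Figure D4:**
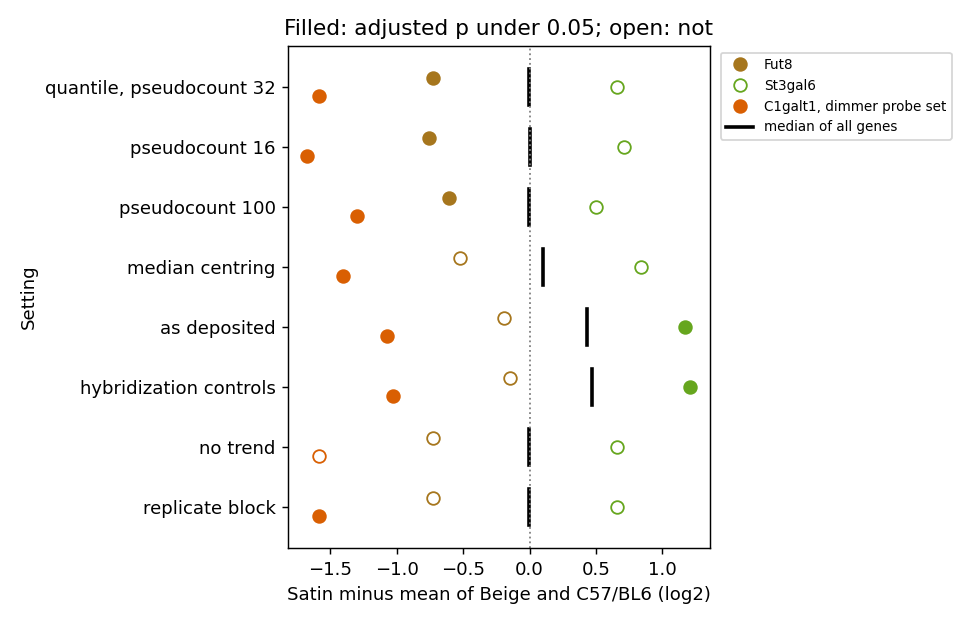
Difference between Satin and the mean of Beige and C57/BL6 on the log2 scale (x axis) under 8 settings (y axis) for Fut8, St3gal6 and the dimmer C1galt1 probe set, with filled points where the adjusted p is under 0.05. Black bars mark the median of all genes, which stands at 0.43 as deposited and 0.47 with the hybridization controls, and all points move with it.

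Without normalization between arrays the picture tilted upward with the bulk of genes. As deposited, 6 of the 36 genes were called, all higher (B3gnt3, Galnt1, Galnt11, Galnt3, St3gal4 and St3gal6), where 16.3% of all genes were called. When arrays were scaled to the hybridization control probe sets, 12 were called, all higher, where 24.2% of all genes were called. Against Beige the counts were 2 as deposited (2.03% of all genes) and 1 with the hybridization controls (1.88%), and against C57/BL6 they were 8 (20.0%) and 14 (32.2%), all higher. Relative to the median of all genes, the median of the glycosylation genes lay at 0.04 as deposited, 0.05 with the hybridization controls and 0.08 with quantile normalization. St3gal6 lay 0.74 above that median in both of these scalings, and 0.66 above it with quantile normalization.

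Genes that supply the sugars were looked at beside the enzymes. A list of 58 genes of nucleotide sugar synthesis and transport, sulfation and other glycosyltransferases had 41 on the array and 39 tested. With limma 0 of these were called against both controls (1.44% of all genes were), and 6 reached an unadjusted p of less than 0.05 (12.6% of all genes did). Of the 39, 16 lay above 0 and 23 below, and the median was -0.02. Gal3st1, which makes sulfatide, stood at 9.04 and 9.22 in Satin, against 10.08 and 9.75 in Beige and 9.63 and 9.80 in C57/BL6 (difference -0.68, SE 0.15, adjusted p = 0.0697). Gfpt1, the first enzyme of hexosamine synthesis, stood at 7.17 and 7.26 in Satin, against 6.56 and 6.20 in Beige and 6.39 and 6.39 in C57/BL6 (difference 0.83, SE 0.22, adjusted p = 0.128), and was called as deposited (0.0051) and with the hybridization controls (0.00629). Gfpt2, which catalyses the same step as Gfpt1, stood at 6.49 and 5.48 in Satin, against 6.97 and 6.80 in Beige and 6.67 and 6.75 in C57/BL6 (difference -0.81, SE 0.30, adjusted p = 0.28). Both Satin arrays lay above all control arrays for Gfpt1 (10.9% of all genes did) and below them for Gal3st1 and Gfpt2 (12.7% of all genes did).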

How the data were processed

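Expression was measured on 6 arrays. The authors deposited a table of linear intensities with 22690 probe sets, and how these signals were computed or scaled is not given in the sources used here. Per the labels' protocols, the starting material was total RNA isolated with Trizol. Of the sample columns 0 were unused. Arrays were assigned to strains by title. The 64 control probe sets were left out. The log2 of each intensity plus 32 was quantile normalized between arrays, and genes above the 30th percentile of all probe sets (5.74) were compared by limma 3.58.1 under R 4.3.3 (lmFit and eBayes with trend, two-sided, 3 residual degrees of freedom), with Benjamini-Hochberg adjustment over 9395 genes and a threshold of 0.05. Summed signals of marker lists are sums of normalized signals. The fit was tested on simulated data, where it called 44.6% of genes raised by 1 on the log2 scale in Satin. Smaller changes were not simulated, so a gene not called here is not shown to be unchanged. The 54 genes, the lists and the rules for named genes were chosen with earlier results of these data known. Named were called genes, those with the smallest p, the highest mean of each role, and a panel. The probe set fit and the genes Galnt10, Galnt11, Gcnt2, B4galt6, B3galt6, B4galt7, B3galt4, St6galnac1, Muc1 and Gfpt2 were added after their values were seen. Alternatives were the pseudocount, filter, scaling, probe set choice, trend, replicate block, groups in the fit and omission of single arrays. The values of Muc5b and the range of the dim chain extension genes were likewise added after they were seen. Precision is limited by having 2 arrays for each strain.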

Additional observations from a re-analysis of the deposited data

How the results depend on the processing

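Counts of called genes depended on scaling, trend and single arrays, and the cause was not tested. In Satin against both controls, 135 genes were called, against 1531 as deposited, 2271 with the hybridization controls, 36 without the trend, and 29 to 293 when single arrays were left out. Satin against Beige gave 84 genes, against 49 without a filter, 191 as deposited, 52 with median centring, 176 with the hybridization controls, 37 from averaged probe sets, 18 when the trend was dropped, 135 with only these groups in the fit, and 9 to 144 over omissions. Satin against C57/BL6 gave 70, against 33, 1875, 45, 3023, 22, 12 and 21 in the same order of settings, and 22 to 214 over omissions. Beige against C57/BL6 gave 0, against 3 as deposited, 4 with the hybridization controls and 0 to 9 over omissions. The higher and lower calls in Satin against both controls were 41 and 94, against 1469 and 62 as deposited, 46 and 46 under median centring, and 2210 and 61 with the hybridization controls.

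Of the glycosylation genes, 1 was called in Satin against both controls, against 6 as deposited, 12 with the hybridization controls, 0 with median centring, 0 without the trend, 0 with the replicate number as a block, and 0 to 1 over omissions. Against Beige it was 0, with 2 as deposited and 1 with the hybridization controls, and against C57/BL6 it was 0, with 8 and 14 in these settings, and 0 over all omissions in both. The single call, Fut8, was kept with pseudocounts of 16 and 100, without a filter and with the mean of probe sets. With each probe set fitted by itself, its adjusted p was 0.0569. It kept its negative sign in every setting run, from -0.76 to -0.14, and St3gal6, St3gal4, Galnt1, Galnt3, B3gnt3 and Fut2 kept their positive sign in every setting run.

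Signs that turned belonged to genes not called with quantile normalization. As deposited, the differences were 0.51 for Galnt2, 0.45 for Galnt4, 0.40 for Galnt7, 0.43 for Gcnt3, 0.18 for St3gal5 and 0.28 for St6gal1, where the median of all genes was 0.43. With the hybridization controls they were 0.56, 0.50, 0.45, 0.48, 0.22 and 0.32 in the same order, and 0.0035 for Fut4. With median centring they were 0.18 for Galnt2, 0.12 for Galnt4, 0.069 for Galnt7 and 0.10 for Gcnt3. With the mean of probe sets they were -0.75 for C1galt1, -0.23 for C1galt1c1, 0.028 for Galnt4 and 0.0034 for Galnt7. Over omissions the range was -0.069 to 0.29 for B4galt1, -0.065 to 0.22 for C1galt1, -0.0078 to 0.072 for C1galt1c1, -0.087 to 0.032 for Galnt2, -0.20 to 0.089 for Galnt4, -0.53 to 0.79 for Galnt6, -0.26 to 0.069 for Gcnt3 and -0.28 to 0.18 for St6gal1.

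The labels number replicates alike in the strains. Deviations of like-numbered arrays correlated at 0.19 (Satin and Beige), 0.27 (Satin and C57/BL6) and 0.12 (Beige and C57/BL6) across genes, which with 2 numbers does not establish pairs. With the replicate number as a block, 123 genes were called in Satin against both controls.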
